A study of Mus musculus with 16 samples.

Results

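The nuclear genes for the subunits of oxidative phosphorylation were described complex by complex in whole mouse retina. Members were the protein-coding genes outside the mitochondrial chromosome whose symbols start with Ndufa, Ndufb, Ndufc, Ndufs or Ndufv and a digit (complex I), are Sdha to Sdhd (complex II), or start with Uqcr (complex III), Cox4 to Cox8 (complex IV) or Atp5 (complex V). This rule took 85 of the 54532 genes in the table of uninjected retinas, with 84 different symbols: 35 in complex I, 4 in complex II, 8 in complex III, 20 in complex IV and 18 in complex V. Ndufa4 and Ndufa4l2 were counted with complex IV, where the protein of the first is now placed. Of the 85, 81 had a mean of at least 1 FPKM (read fragments divided by the length of the gene and by the library total) over the 10 uninjected retinas and were tested. The 4 others were Cox6a2, Cox7b2, Cox8c and a second identifier of Atp5o. The table of injected retinas listed 84 members and 81 of them were tested there. Symbols outside the pattern, such as Cyc1, Cycs, Ndufab1 and Ndufb1-ps, were not members.

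All mice were C57BL6/J. Of the uninjected retinas, 3 came from wild-type and 3 from Elovl2 mutant mice aged 12 months, and 4 from wild-type mice aged 18 months. The substitution in Elovl2, which encodes an elongase of very long polyunsaturated fatty acids, appears as C234W in the design text, while the labels of the samples have C34W. The injected groups were wild-type retinas at 18 months, taken 5 days after 1 eye had received 0.36 nmol of the fatty acid 24:5 (24 carbons, 5 double bonds) in the vitreous (n = 3) or the fellow eye had received vehicle (n = 3). The labels do not tie a library to an animal, so the eyes of one mouse could not be matched, and the spread that the p-values rest on may be technical in part. The tissue is a mixture of cells, and fewer cells of a type cannot be told apart from less RNA per cell.

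Oxidative phosphorylation passes electrons from NADH (complex I) and succinate (complex II) through ubiquinone, complex III, cytochrome c and complex IV to oxygen, and the proton gradient built on the way drives ATP synthase (complex V). Complexes I, III, IV and V combine subunits encoded in the nucleus with subunits encoded in mitochondrial DNA, whereas complex II is wholly nuclear. In the retina the inner segments of photoreceptors are packed with mitochondria, and their ion pumping makes the tissue one of the heaviest users of oxygen in the body.

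Uninjected libraries held 12810558 to 30519417 reads, as recovered from the FPKM values, and injected libraries 22066668 to 25609242 counts. The members took 0.729% to 1.10% of the reads of an uninjected library and 0.8294% to 0.968% of the counts of an injected one. The summed level of 10 rod photoreceptor genes was 13369 to 15374 FPKM over the uninjected libraries. The labelled tissue thus carried its defining markers in each of these libraries.

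No nuclear subunit of any complex passed the threshold in any of the 4 comparisons, and their summed level differed more between libraries of 1 group than between group means. Their levels were high: the median member had 46.3 FPKM over the uninjected libraries, against 6.39 FPKM for the median of the 13786 genes tested. By complex the median was 40.2 FPKM for complex I, 37.5 for complex II, 60.6 for complex III, 53.4 for the 17 tested members of complex IV and 51.1 for the 17 of complex V. Within complex I the 7 core subunits, which include the carriers of the flavin and the iron-sulfur clusters, had a median of 53.5 FPKM, and the 28 accessory subunits one of 36.05. FPKM is divided by the annotated gene length, so an order of levels between genes depends on that length.

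**Figure D1:**
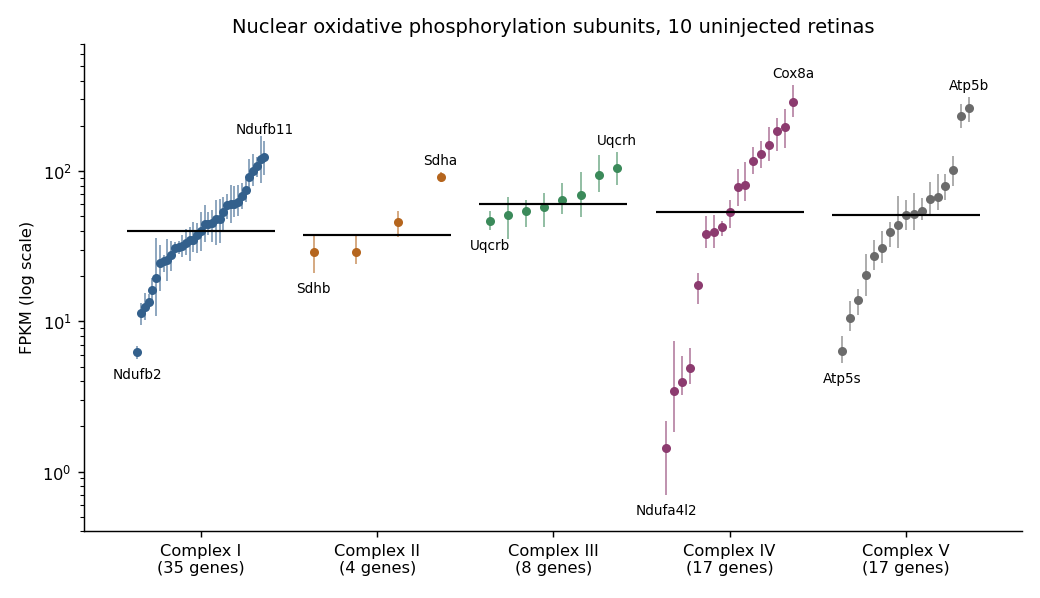
Mean level of each tested member over the 10 uninjected retinas, in FPKM on a log axis, by complex. Points are means, vertical lines run from the lowest to the highest library and horizontal lines are the medians of each complex; members of complex IV spread from 1.44 FPKM for Ndufa4l2 to 287 FPKM for Cox8a.

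Promoter windows are shown for 5 members, 1 per complex, as the sequences in which the motifs below were searched. For each complex the highest member with an entry on a chromosome other than 18 was taken. Windows run from 250 bases before to 50 bases after the start annotated by RefSeq (GRCm38.p6), read 5′ to 3′ on the strand of the gene. Capitals mark the letters of 5 motifs that are known at promoters of respiratory genes or at promoters in general, searched on both strands: CCGGAAG (ETS family, GABPA), CGCANGCG (NRF1), AAGATGG (YY1), AAGGTCA (estrogen-related receptors) and CCAAT (NF-Y). Letters of 2 different motifs overlapped in 0 of the 73 windows of members. Ndufb11 lies at chrX:20617570-20617869 on the minus strand, Sdha at chr13:74350191-74350490 on the minus strand, Uqcrh at chr4:116075021-116075320 on the minus strand, Cox8a at chr19:7217567-7217866 on the minus strand and Atp5b at chr10:128083057-128083356 on the plus strand.
Ndufb11: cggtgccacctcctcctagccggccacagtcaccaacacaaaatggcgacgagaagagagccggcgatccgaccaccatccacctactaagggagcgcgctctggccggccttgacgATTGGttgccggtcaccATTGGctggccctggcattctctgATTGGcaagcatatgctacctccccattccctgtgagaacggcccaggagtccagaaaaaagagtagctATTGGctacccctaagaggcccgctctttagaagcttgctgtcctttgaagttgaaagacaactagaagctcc
Sdha: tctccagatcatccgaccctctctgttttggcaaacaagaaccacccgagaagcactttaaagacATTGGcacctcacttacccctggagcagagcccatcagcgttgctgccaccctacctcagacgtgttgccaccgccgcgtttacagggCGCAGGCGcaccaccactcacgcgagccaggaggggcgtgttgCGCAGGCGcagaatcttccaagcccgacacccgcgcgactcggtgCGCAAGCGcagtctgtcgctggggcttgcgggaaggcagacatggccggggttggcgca
Uqcrh: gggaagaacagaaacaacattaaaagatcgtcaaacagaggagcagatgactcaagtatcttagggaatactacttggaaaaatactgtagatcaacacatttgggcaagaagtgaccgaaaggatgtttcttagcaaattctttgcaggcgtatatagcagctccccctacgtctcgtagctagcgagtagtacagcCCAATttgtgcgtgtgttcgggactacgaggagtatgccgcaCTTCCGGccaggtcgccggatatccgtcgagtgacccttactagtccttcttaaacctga
Cox8a: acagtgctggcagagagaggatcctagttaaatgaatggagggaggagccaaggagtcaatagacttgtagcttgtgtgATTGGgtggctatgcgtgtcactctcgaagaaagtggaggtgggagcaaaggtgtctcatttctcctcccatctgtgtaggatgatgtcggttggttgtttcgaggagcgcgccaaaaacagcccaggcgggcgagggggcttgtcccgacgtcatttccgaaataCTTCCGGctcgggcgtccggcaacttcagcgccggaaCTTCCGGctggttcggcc
Atp5b: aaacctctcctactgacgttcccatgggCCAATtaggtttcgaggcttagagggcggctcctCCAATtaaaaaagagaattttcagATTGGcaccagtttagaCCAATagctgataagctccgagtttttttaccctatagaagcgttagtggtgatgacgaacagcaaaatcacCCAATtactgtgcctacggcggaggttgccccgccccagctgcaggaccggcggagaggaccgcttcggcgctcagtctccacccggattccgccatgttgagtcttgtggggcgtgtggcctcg

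Sdha held the NRF1 letters at 3 places, Cox8a the ETS letters at 2 and Uqcrh at 1. Ndufb11 and Atp5b held none of the letters of these 2 families, but the CCAAT letters at 4 and 5 places. Entries were found for 68 of the 84 member symbols. The NRF1 letters stood in 25 of these 68 (36.8%), against 8.21% of all 32851 promoter windows and 20.1% of the 9180 other protein-coding genes with a mean of at least 1 FPKM. ETS letters were found in 16 (23.5%), against 8.86% of all windows and 20.1% of the other expressed genes. YY1 letters were in 11 (16.2%, against 6.34% and 8.49%), those of the estrogen-related receptors in 8 (11.8%, against 4.72% and 3.64%) and CCAAT in 30 (44.1%, against 37.4% and 43.3%). By complex the NRF1 letters were in 10 of 31 members of complex I, 2 of 3 of complex II, 3 of 5 of complex III, 1 of 14 of complex IV and 9 of 15 of complex V. A match is a run of letters and not a measured binding site.

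Complex I oxidises NADH. Ndufb11 and Ndufc2, accessory subunits of its membrane arm, were its highest members. Ndufb11 had 112, 93.8 and 158 FPKM in the wild-type retinas at 12 months, 103, 127 and 136 in the mutant retinas and 155, 104, 114 and 129 in the wild-type retinas at 18 months. Ndufc2 had 107, 82.7 and 170.4 FPKM in the wild-type retinas at 12 months, 91.2, 123 and 141 in the mutant retinas and 149, 104, 108 and 121 in the wild-type retinas at 18 months. In both genes wild-type replicate 3 at 12 months was the highest library and wild-type replicate 2 of the same group the lowest, so the range of 1 group spanned all others. The lowest members were accessory subunits too. Ndufb2 had 6.06, 6.07 and 5.64 FPKM in the wild-type retinas at 12 months, 6.16, 6.83 and 5.94 in the mutant retinas and 6.55, 5.96, 6.75 and 6.36 in the wild-type retinas at 18 months. Ndufb5 had 10.5, 10.7 and 13.2 FPKM in the wild-type retinas at 12 months, 9.52, 12.8 and 11.2 in the mutant retinas and 13.2, 10.8, 10.5 and 10.99 in the wild-type retinas at 18 months. Ndufb2 was one of the steadiest members, with a highest library only 1.21 times the lowest, and its groups overlapped.

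Among the core subunits of complex I, Ndufs1, the largest subunit of the peripheral arm, had a mean of 13.5 FPKM, and Ndufv1, which binds NADH and the flavin, one of 74.4 FPKM. The highest library of Ndufs1 was 1.199 times its lowest, against 1.80 times for Ndufs8, which holds iron-sulfur clusters.

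Complex II is the succinate dehydrogenase of the citric acid cycle. Sdha, its flavoprotein, had 90.5, 84.1 and 97.9 FPKM in the wild-type retinas at 12 months, 84.6, 92.99 and 94.6 in the mutant retinas and 92.6, 88.4, 88.7 and 97.3 in the wild-type retinas at 18 months. It was the steadiest of the 81 members, with a highest library 1.16 times the lowest. Sdhb, the iron-sulfur subunit, had 27.1, 21.05 and 38.04 FPKM in the wild-type retinas at 12 months, 24.5, 30.6 and 30.3 in the mutant retinas and 35.1, 25.99, 28.8 and 27.5 in the wild-type retinas at 18 months. Its lowest and highest libraries were again wild-type replicates 2 and 3 at 12 months, 1.81-fold apart. Sdhc and Sdhd anchor the complex in the inner membrane. Sdhc had 27.01, 24.2 and 37.3 FPKM in the wild-type retinas at 12 months, 23.97, 31.03 and 30.9 in the mutant retinas and 33.1, 26.6, 27.1 and 30.04 in the wild-type retinas at 18 months. Sdhd had 43.8, 36.4 and 52.6 FPKM in the wild-type retinas at 12 months, 38.95, 47.3 and 50.03 in the mutant retinas and 54.5, 40.2, 48.5 and 46.9 in the wild-type retinas at 18 months. The mutant values of Sdhd lay inside the range of the wild-type values at 12 months, and those of Sdhc did so but for mutant replicate 1, which was slightly below it.

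Complex III takes electrons from ubiquinol to cytochrome c, and its members had the narrowest relative range of levels of the 5 complexes, from 46.3 to 104 FPKM. Uqcrh, the hinge protein that helps dock cytochrome c, had 92.5, 87.3 and 126 FPKM in the wild-type retinas at 12 months, 81.02, 102 and 112 in the mutant retinas and 133, 95.2, 94.7 and 120.2 in the wild-type retinas at 18 months. The small subunit Uqcr10 had 83.7, 73.04 and 116 FPKM in the wild-type retinas at 12 months, 81.4, 90.9 and 108 in the mutant retinas and 127, 78.4, 84.02 and 98.2 in the wild-type retinas at 18 months. Both were highest in wild-type replicate 1 at 18 months and lowest in replicate 1 of the mutant (Uqcrh) or replicate 2 of the wild type at 12 months (Uqcr10). The lowest members were Uqcrb and Uqcrq, small subunits near the ubiquinone sites. Uqcrb had 43.2, 41.3 and 49.8 FPKM in the wild-type retinas at 12 months, 41.5, 47.8 and 54.4 in the mutant retinas and 51.96, 42.5, 40.4 and 50.2 in the wild-type retinas at 18 months. Uqcrq had 46.2, 35.4 and 56.5 FPKM in the wild-type retinas at 12 months, 43.2, 51.1 and 59.4 in the mutant retinas and 67.6, 43.7, 49.1 and 54.2 in the wild-type retinas at 18 months. Their groups overlapped, and the Rieske iron-sulfur protein Uqcrfs1 stood between these pairs at a mean of 63.8 FPKM.

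Complex IV reduces oxygen. Its nuclear subunits surround a mitochondrially encoded core, and several exist as isoforms of common and of restricted tissue distribution. Cox8a, the common form of the smallest subunit, was the highest of all members, with 249.6, 229.6 and 280.2 FPKM in the wild-type retinas at 12 months, 276, 269 and 339.9 in the mutant retinas and 375, 274, 253 and 327 in the wild-type retinas at 18 months. Cox4i1, the common form of subunit 4, had 177, 143 and 259 FPKM in the wild-type retinas at 12 months, 159.8, 205 and 228 in the mutant retinas and 247, 168, 179 and 209 in the wild-type retinas at 18 months. Wild-type replicate 1 at 18 months was highest in Cox8a and wild-type replicate 3 at 12 months in Cox4i1, and in both genes the 3 groups overlapped. The common forms Cox6a1, Cox6b1, Cox7a2 and Cox7b and Ndufa4 averaged 184, 117, 78.2, 53.4 and 150 FPKM. Over the 10 libraries Cox6a1 ranged from 136 to 225 FPKM, Cox6b1 from 95.1 to 145, Cox7b from 42.04 to 64.1 and Ndufa4 from 117 to 196. Cox7a2l, a paralogue of Cox7a2, had 117, 105 and 158 FPKM in the wild-type retinas at 12 months, 106, 139 and 146 in the mutant retinas and 153, 123, 125 and 127 in the wild-type retinas at 18 months.

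The restricted isoforms were minor parts of each pair, and the largest share was that of Cox4i2. Cox4i2, an isoform known from lung, pericytes and low oxygen, had 33.5, 30.7 and 47.4 FPKM in the wild-type retinas at 12 months, 32.4, 41.05 and 42.2 in the mutant retinas and 50.3, 33.5, 34.02 and 38.1 in the wild-type retinas at 18 months. It made up 15.4% to 17.7% of the summed Cox4i1 and Cox4i2 level in every uninjected library, with means of 16.3% ± 1.18 (SD, n = 3) in wild-type retinas at 12 months, 16.4% ± 0.658 (n = 3) in mutant retinas and 16.2% ± 0.651 (n = 4) in wild-type retinas at 18 months. The share thus stayed within a narrow band over these libraries. Cox4i1 overlaps Emc8, annotated on the other strand, and the predicted gene Gm20388 on its own strand, and the labels do not say how reads in such overlaps were counted. The summed level of 7 pericyte genes was 407 to 481 FPKM over the same libraries. Among them Rgs5 had 12.7 to 20.7 FPKM, Pdgfrb 2.82 to 3.79 and Higd1b 0.972 to 1.34. Most of the sum thus came from the other genes of the list, which were Kcnj8, Abcc9, Notch3 and Vtn. Whether the sum follows pericytes, and its part in Cox4i2, was not tested. In the injected retinas, whose table was made separately and is not compared in level, Cox4i2 took 7.76% to 10.4% of the pair per length.

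Isoforms known from heart and skeletal muscle were low. Cox7a1 had 5.91, 3.23 and 3.88 FPKM in the wild-type retinas at 12 months, 3.54, 4.32 and 3.79 in the mutant retinas and 4.19, 3.76, 3.61 and 3.23 in the wild-type retinas at 18 months, which was 3.42% to 7.54% of the sum with Cox7a2. Cox8b had 3.18, 1.83 and 2.95 FPKM in the wild-type retinas at 12 months, 4.77, 2.74 and 4.05 in the mutant retinas and 7.36, 2.07, 1.905 and 3.31 in the wild-type retinas at 18 months, or 0.747% to 1.93% of the sum with Cox8a. Cox6a2 had 0.396, 0.523 and 0.06497 FPKM in the wild-type retinas at 12 months, 1.92, 0.771 and 0.652 in the mutant retinas and 1.099, 0.768, 0.642 and 0.351 in the wild-type retinas at 18 months, under the mean of 1 FPKM that was tested. The 3 genes did not share an order of libraries: Cox7a1 was highest in wild-type replicate 1 at 12 months, Cox8b in wild-type replicate 1 at 18 months and Cox6a2 in mutant replicate 1. That mutant library also had the highest summed level of 10 skeletal muscle genes, 15.7 FPKM against 4.0 to 4.7 FPKM in the other 9, and the part of muscle RNA in Cox6a2 was not tested.

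The isoforms known from testis were low or at 0. Cox6b2 had 5.56, 4.67 and 4.67 FPKM in the wild-type retinas at 12 months, 4.701, 4.59 and 4.804 in the mutant retinas and 6.62, 3.84, 3.88 and 5.65 in the wild-type retinas at 18 months, which was 3.12% to 4.86% of the sum with Cox6b1. Cox7b2 was at 0 in 7 of the 10 libraries and at 0.125 to 0.163 FPKM in the others. Cox8c was listed at 0 FPKM in the 10 uninjected libraries and at 0 counts in the 6 injected ones. Ndufa4l2, a paralogue of Ndufa4 known as a target of the low-oxygen response, had 1.35, 0.696 and 2.18 FPKM in the wild-type retinas at 12 months, 1.46, 1.52 and 1.56 in the mutant retinas and 1.74, 0.954, 1.423 and 1.47 in the wild-type retinas at 18 months. This was 0.591% to 1.34% of the sum with Ndufa4, and its lowest and highest libraries were both wild-type at 12 months.

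**Figure D2:**
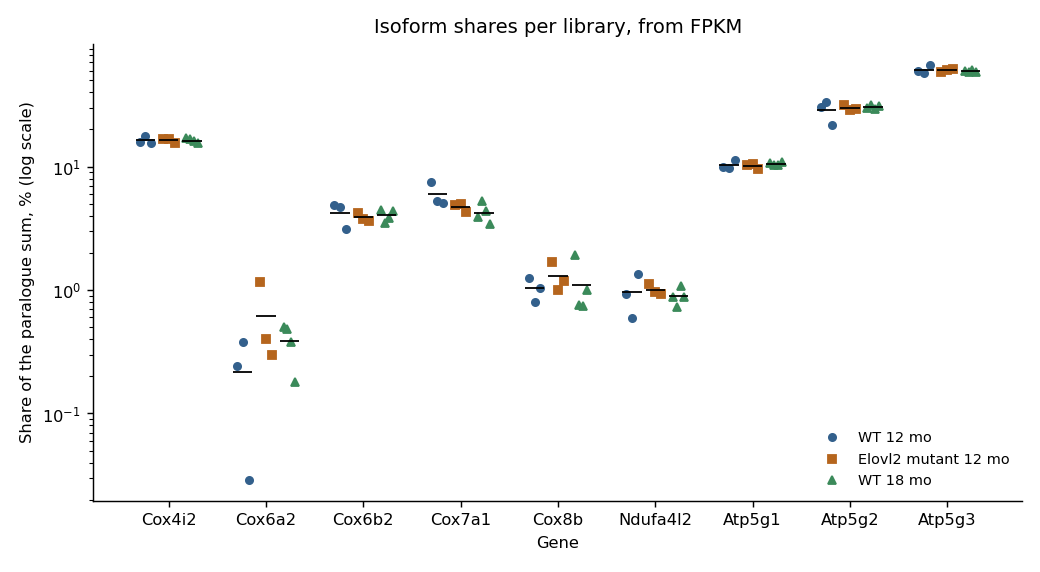
Share of each gene in the summed FPKM of its paralogues, in percent on a log axis, for the 10 uninjected retinas by group. Points are libraries and short lines group means; each of the first 6 genes is set against 1 partner (Cox4i1, Cox6a1, Cox6b1, Cox7a2, Cox8a, Ndufa4) and the 3 Atp5g genes against their sum, with Cox4i2 at 15.4% to 17.7%.

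Complex V makes ATP. The α and β subunits of its catalytic head were the highest members. Atp5b, the catalytic β subunit, had 239, 213 and 311 FPKM in the wild-type retinas at 12 months, 229.99, 279 and 279 in the mutant retinas and 299.5, 235, 250.4 and 284 in the wild-type retinas at 18 months. Atp5a1, the α subunit, had 214, 192 and 278 FPKM in the wild-type retinas at 12 months, 202, 244 and 249 in the mutant retinas and 254, 215, 221 and 240.3 in the wild-type retinas at 18 months. The 2 subunits, which assemble in equal number, had mean levels of 262 and 231 FPKM and followed the same order of high and low libraries at the extremes. The lowest members were Atp5s, a coupling factor that is no structural part of the enzyme, and Atp5l, subunit g of the membrane part. Atp5s had 5.41, 6.15 and 5.42 FPKM in the wild-type retinas at 12 months, 5.78, 6.85 and 7.99 in the mutant retinas and 7.13, 5.31, 6.82 and 6.52 in the wild-type retinas at 18 months. Atp5l had 10.5, 8.81 and 12.6 FPKM in the wild-type retinas at 12 months, 8.58, 10.2 and 10.4 in the mutant retinas and 13.6, 9.03, 10.6 and 10.6 in the wild-type retinas at 18 months. Groups overlapped in both genes.

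Subunit c, the rotating ring of complex V, is encoded by 3 genes whose mature peptide is the same. Atp5g3 gave 56.9% to 66.8% of their summed level, Atp5g2 21.9% to 33.3% and Atp5g1 9.595% to 11.3%. Atp5g2 had 39.1, 37.3 and 31.1 FPKM in the wild-type retinas at 12 months, 38.8, 39.6 and 42.5 in the mutant retinas and 45.5, 38.4, 35.7 and 42.9 in the wild-type retinas at 18 months. It went against the other 2 genes in wild-type replicate 3 at 12 months, where it was at its lowest and took 21.9% of the sum. A second identifier of Atp5o, the stalk subunit known as OSCP, was at 0 FPKM in the 10 libraries and overlaps the first on the same strand. The first had a mean of 20.2 FPKM, and how reads in the shared part were counted is not given in the sources used here.

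Members of all 5 complexes were high together in some libraries and low together in others. After each gene was centred on its mean over the 10 uninjected libraries, the median of the 81 members ran from -0.29 (log2) in wild-type replicate 2 at 12 months to 0.29 in wild-type replicate 1 at 18 months. In the first of these libraries 0 of 81 members stood above their own mean and 61 were at their lowest. In the second, 81 of 81 stood above their mean and 43 were at their highest. Wild-type replicate 3 at 12 months had 67 above and was highest for 32. Low and high libraries were found in every group: 4, 0 and 67 members stood above their mean in the wild-type libraries at 12 months, 4, 60 and 72 in the mutant libraries and 81, 1, 10 and 71 in the wild-type libraries at 18 months.

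**Figure D3:**
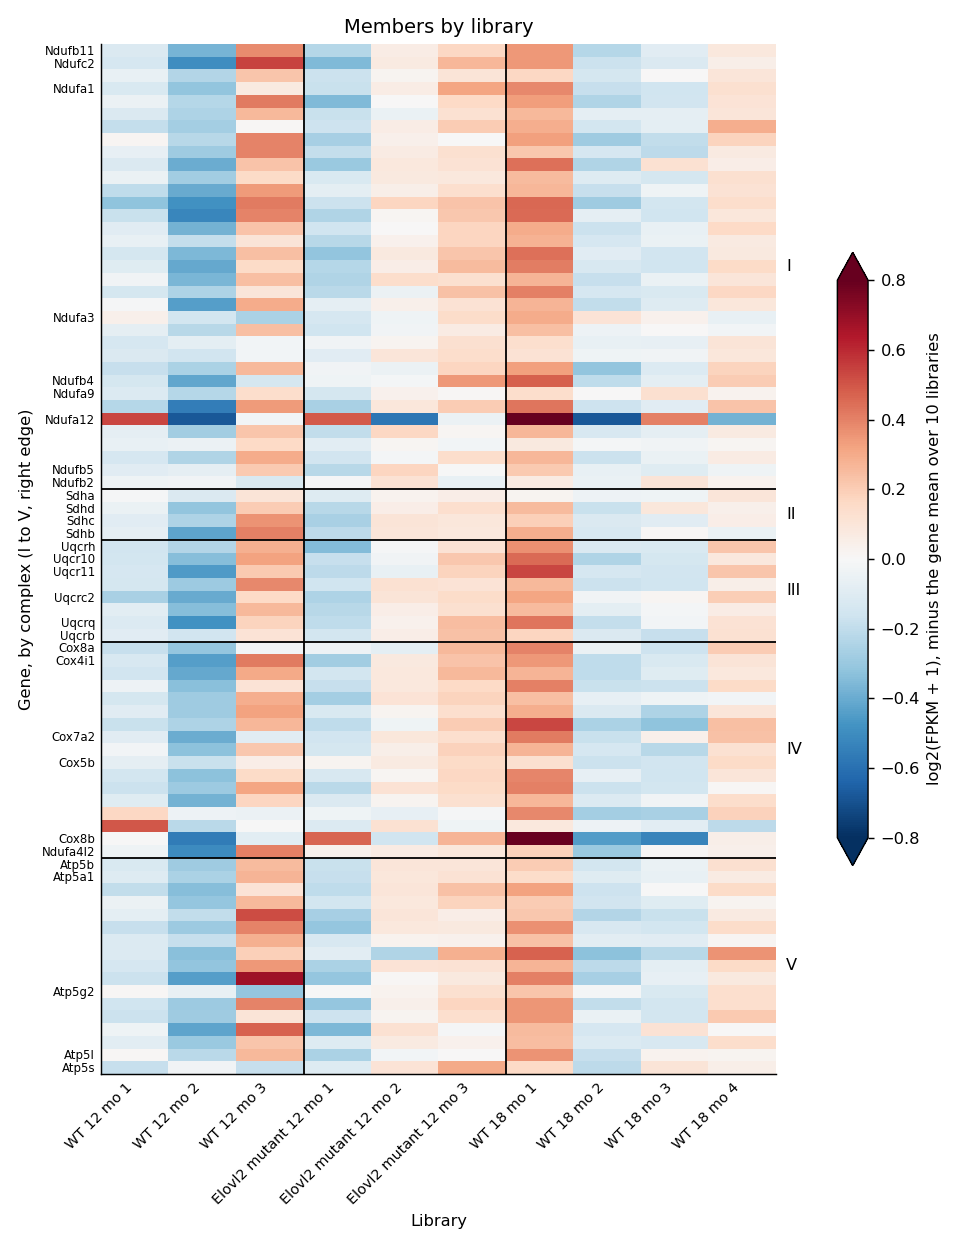
Level of each of the 81 tested members in each uninjected library, as log2(FPKM + 1) minus the mean of that gene over the 10 libraries, with names beside the rows of selected members; red is above and blue below the mean, and black lines divide groups and complexes. Columns are alike from top to bottom, with wild-type replicate 2 at 12 months below the mean in 81 of 81 members and wild-type replicate 1 at 18 months above it in 81 of 81.

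A like pattern over libraries was seen in genes of other function. The median of 77 ribosomal protein genes ran from -0.31 to 0.38, lowest and highest in the same 2 libraries as the members. Other protein-coding genes under 1000 bases, which include some of the ribosomal ones, ran from -0.25 to 0.26 and those over 8000 bases the other way, from 0.15 to -0.14. Malat1, a long nuclear RNA, was highest at 377 FPKM in wild-type replicate 2 at 12 months and lowest at 85.7 FPKM in replicate 3 of the same group. The median of 14 regulators of mitochondrial biogenesis was highest, at 0.10, in the library where the members were lowest, and lowest, at -0.10, in the library where the members were highest. That of 47 assembly factors was lowest, at -0.11, in mutant replicate 1 and highest, at 0.16, in wild-type replicate 1 at 18 months. The 13 mitochondrially encoded subunits had another order, with their lowest median of -0.49 in wild-type replicate 3 at 12 months, where the members were high. The part of transcript length and library composition in the common movement of the members was not tested. A fit with the trend with gene length removed was run for the comparisons of uninjected retinas and called 0 members. The main fits of these comparisons called 0 as well, so this count cannot show the part of length.

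**Figure D4:**
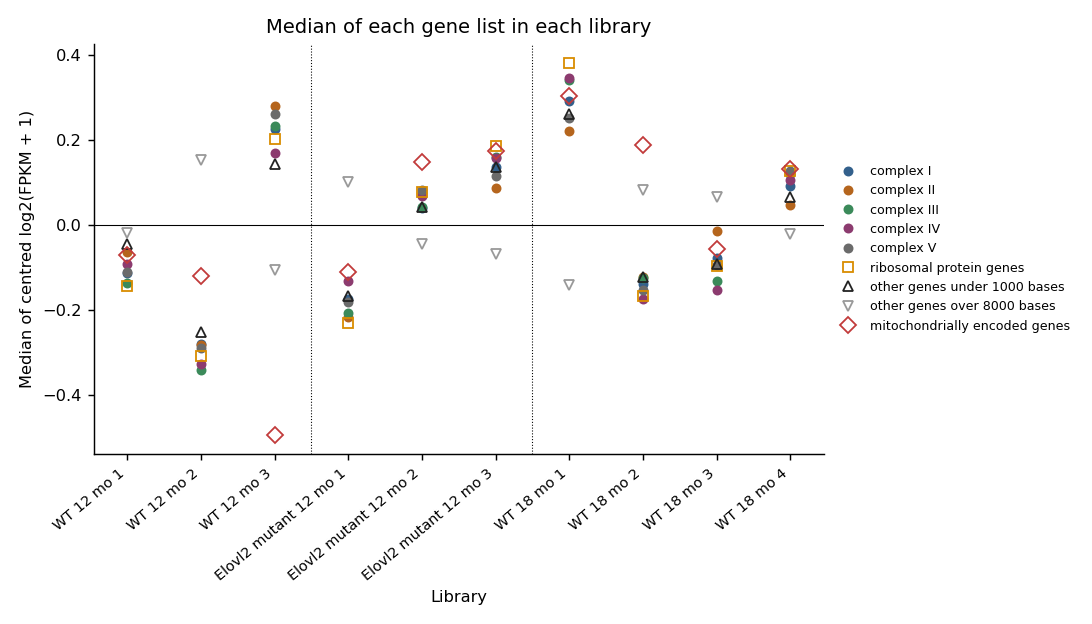
Median of each gene list in each uninjected library, on the scale of log2(FPKM + 1) minus the mean of the gene. Filled circles are the 5 complexes and open symbols the other lists. Complexes, ribosomal protein genes and short genes lie on the same side of 0 in each library. Genes over 8000 bases lie on the other side, except in wild-type replicate 1 at 12 months, where they are at -0.019. Mitochondrially encoded genes fall to -0.49 in wild-type replicate 3 at 12 months.

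Single members departed from the common order. The median member had a highest library 1.61 times its lowest, and the extremes were Sdha at 1.16 and Cox8b at 4.01. By gene length the median ratio was 1.71 for the 21 members under 1000 bases and 1.48 for the 10 over 4000 bases. Ndufa12, an accessory subunit of the peripheral arm of complex I, spread 3.29-fold, with 26.5, 10.9 and 17.7 FPKM in the wild-type retinas at 12 months, 25.7, 11.7 and 17.4 in the mutant retinas and 35.8, 10.9, 24.1 and 13.6 in the wild-type retinas at 18 months. It was high in 1 or 2 libraries of each group, which included wild-type replicate 1 at 12 months and mutant replicate 1, where the other members were mostly low. Atp5e, the ε subunit of the central stalk of complex V, spread 2.21-fold and peaked at 68.2 FPKM in wild-type replicate 3 at 12 months. Ndufa12 and Atp5e were singled out after their values had been seen.

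Retinas of wild-type mice at 18 and 12 months were compared to ask what age does to these genes. None of the 81 members passed an adjusted p of 0.05 (limma on log2(FPKM + 1), Benjamini-Hochberg over the 13786 genes tested), and 0.0% of all genes did. At an unadjusted p of 0.05 the count was 0 of 81, against 3.65% of all genes. edgeR on the recovered reads also called 0 members. The fitted mean at 18 months was the higher one for 73 of 81, and the median log2 fold change was 0.088 against -0.001 for all genes. Ribosomal protein genes moved alike, with 71 of 77 higher and a median of 0.13. Of the pigment epithelium genes, 5 of 5 tested were higher, with a median of 0.50. Their sum was 167 and 171 FPKM in wild-type replicates 1 and 4 at 18 months, and 59.4 to 113 FPKM in the other uninjected libraries. The part of pigment epithelium in the values of the members was not tested. By complex 30 of 35 members were higher in complex I (median 0.097), 4 of 4 in complex II (0.038), 8 of 8 in complex III (0.12), 15 of 17 in complex IV (0.083) and 16 of 17 in complex V (0.066). Without wild-type replicate 2 at 12 months the medians of complexes I, II, IV and V turned to -0.017, -0.079, -0.048 and -0.070, and without wild-type replicate 1 at 18 months those of complexes II, IV and V to -0.008, -0.022 and -0.011.

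The summed level of all members was 4788 ± 963 FPKM (SD, n = 3) in wild-type retinas at 12 months and 5133 ± 776 FPKM (n = 4) at 18 months, with ranges of 3962 to 5846 and 4444 to 6137. For 65 of 81 members the 95% interval of the age difference lay within 1.5-fold in either direction, and for 80 within 2-fold, all but Ndufa12. Cox7a2, the common form of subunit 7a of complex IV, had the smallest p of complex IV and of all members, with 72.5, 58.4 and 72.4 FPKM in the wild-type retinas at 12 months, 69.5, 82.5 and 84.9 in the mutant retinas and 103, 68.1, 79.5 and 91.2 in the wild-type retinas at 18 months. Wild-type replicate 1 at 18 months was highest, but replicate 2 of that group lay below 2 of the 3 libraries at 12 months. Its log2 fold change was 0.32 ± 0.15 (SE), with a 95% interval from -0.0049 to 0.65 and an unadjusted p of 0.0529.

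In complex I the smallest p was that of Ndufa3, an accessory subunit of the membrane arm, with 34.2, 29.9 and 27.8 FPKM in the wild-type retinas at 12 months, 30.2, 32.5 and 36.95 in the mutant retinas and 41.02, 35.9, 34.04 and 31.9 in the wild-type retinas at 18 months. The 2 age groups overlapped, and the log2 fold change was 0.22 ± 0.11 (SE), with a 95% interval from -0.024 to 0.46 and an unadjusted p of 0.0724. In complex III it was that of Uqcrc2, a core protein of the matrix side, with 47.2, 42.6 and 63.5 FPKM in the wild-type retinas at 12 months, 47.7, 61.1 and 62.8 in the mutant retinas and 70.9, 55.5, 57.3 and 65.2 in the wild-type retinas at 18 months. Here only wild-type replicate 3 at 12 months reached the range of the older group, and the log2 fold change was 0.29 ± 0.15 (SE), with a 95% interval from -0.049 to 0.64 and an unadjusted p of 0.0848. Sdhd led complex II at 0.11 ± 0.14 (SE), with a 95% interval from -0.21 to 0.43 and an unadjusted p of 0.468. In complex V, Atp5g2 led at 0.18 ± 0.10 (SE), with a 95% interval from -0.056 to 0.41 and an unadjusted p of 0.122.

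Mutant and wild-type retinas at 12 months were compared for the effect of the Elovl2 substitution. This comparison uses the same wild-type libraries at 12 months as that of age. None of the 81 members was called by limma at an adjusted p of 0.05, where 0.0% of all genes were, and 0 of 81 had an unadjusted p under 0.05, against 2.19% of all genes. edgeR on the recovered reads called 0 members as well. Of the 81, 63 had a higher fitted mean in the mutant, with a median of 0.059 against -0.006 for all genes. Ribosomal protein genes had a median of 0.062, with 65 of 77 higher. By complex 29 of 35 were higher in complex I (median 0.071), 2 of 4 in complex II (0.010), 7 of 8 in complex III (0.074), 15 of 17 in complex IV (0.11) and 10 of 17 in complex V (0.037). Without wild-type replicate 2 the 5 medians were -0.061, -0.12, -0.077, -0.055 and -0.077. The medians of complexes II and V were also negative without mutant replicate 2 (-0.027 and -0.0032), mutant replicate 3 (-0.029 and -0.040, with -0.0054 for complex III) or wild-type replicate 1 (-0.00088 and -0.00060).

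Ndufb4, an accessory subunit of the membrane arm, had the smallest p of complex I in this comparison and was the 1 of 81 members whose groups did not overlap, against 5.97% of all genes tested. It had 22.8, 18.6 and 22.7 FPKM in the wild-type retinas at 12 months, 24.5, 24.8 and 32.3 in the mutant retinas and 35.5, 21.7, 23.8 and 29.2 in the wild-type retinas at 18 months. The 3 mutant values lay above the 3 wild-type values at 12 months, and the log2 fold change was 0.33 ± 0.18 (SE), with a 95% interval from -0.067 to 0.73 and an unadjusted p of 0.0935. Reads of Ndufb4 may be shared with close copies of the gene, such as Ndufb4c. Atp5s, whose values are given above, had 0.23 ± 0.12 (SE), with a 95% interval from -0.039 to 0.51 and an unadjusted p of 0.085, with an overlap between groups. Cox7a2 and Uqcrc2 led complexes IV and III in this comparison too. Their log2 fold changes were 0.22 ± 0.16 (SE), with a 95% interval from -0.13 to 0.57 and an unadjusted p of 0.191, and 0.17 ± 0.16 (SE), with a 95% interval from -0.20 to 0.54 and an unadjusted p of 0.323. Sdhd in complex II had 0.044 ± 0.15 (SE), with a 95% interval from -0.30 to 0.39 and an unadjusted p of 0.777. For 70 of 81 members the interval lay within 1.5-fold in either direction and for 79 within 2-fold, the others being Cox8b and Ndufa12.

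Wild-type retinas at 18 months were also set against mutant retinas at 12 months, which shares libraries with both comparisons above. None of 81 members was called by limma, against 0.0% of all genes, nor by edgeR on the recovered reads, and 0 of 81 had an unadjusted p under 0.05, against 2.14% of all genes. The median log2 fold change was 0.040, with 63 of 81 higher at 18 months. Ribosomal protein genes had a median of 0.047, with 62 of 77 higher. The medians of the members by complex were 0.043, 0.036, 0.062, 0.024 and 0.040 for I to V. Without mutant replicate 1 they were -0.046, -0.051, -0.047, -0.073 and -0.022, without wild-type replicate 1 -0.044, -0.015, -0.028, -0.10 and -0.036, and without wild-type replicate 4 that of complex IV was -0.0030. For 77 of 81 members the interval lay within 1.5-fold in either direction, and for 80 within 2-fold, all but Ndufa12. Ndufa9, an accessory subunit of the peripheral arm, had the smallest p, with 23.1, 21.1 and 27.6 FPKM in the wild-type retinas at 12 months, 22.6, 25.6 and 25.2 in the mutant retinas and 27.7, 25.1, 27.4 and 25.5 in the wild-type retinas at 18 months. Mutant replicate 1 was below the 4 libraries at 18 months and the other 2 mutant libraries were inside their range. The log2 fold change was 0.11 ± 0.092 (SE), with a 95% interval from -0.10 to 0.31 and an unadjusted p of 0.268. Cox5b, the zinc-binding subunit of complex IV, had 39.99, 37.02 and 43.7 FPKM in the wild-type retinas at 12 months, 42.6, 44.1 and 46.8 in the mutant retinas and 45.98, 37.2, 37.8 and 46.8 in the wild-type retinas at 18 months. Here 2 libraries at 18 months lay below the mutant range and the log2 fold change was -0.092 ± 0.10 (SE), with a 95% interval from -0.32 to 0.13 and an unadjusted p of 0.387. In complexes II, III and V the smallest p values were those of Sdhd (log2 fold change 0.063), Uqcrh (0.17) and Atp5l (0.15), all with intervals that include 0.

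**Figure D5:**
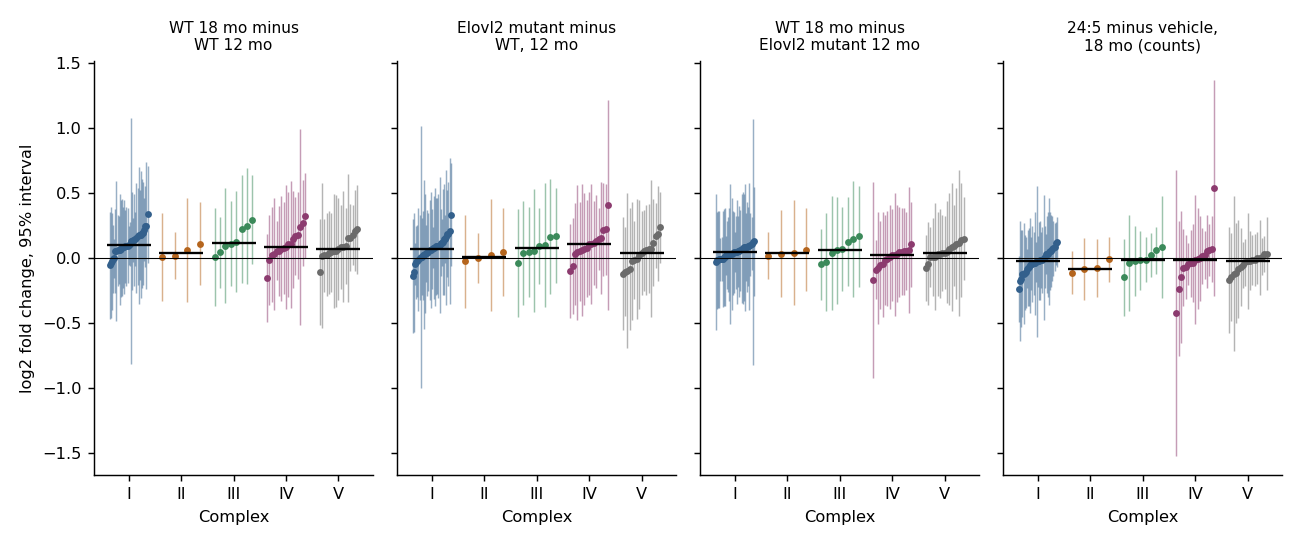
Log2 fold change of each tested member in the 4 comparisons, by complex; points are members, vertical lines 95% intervals and black bars medians of each complex, from limma on log2(FPKM + 1) in the first 3 panels and edgeR on counts in the last. Medians lie between 0.010 and 0.12 in the first 3 panels and between -0.083 and -0.015 in the last, and no member was called.

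Retinas given 24:5 were compared with vehicle retinas to ask whether the fatty acid changes these genes at 18 months. None of the 81 members passed an adjusted p of 0.05 (edgeR quasi-likelihood, over 17466 genes), against 0.0115% of all genes, or 2 genes. At an unadjusted p of 0.05 it was 0 of 81, against 6.61% of all genes. DESeq2 called 0 members too. Of the 81, 25 had a higher and 56 a lower fitted mean after 24:5, with a median of -0.026 against 0.003 for all genes. Ribosomal protein genes had a median of -0.034, with 23 of 77 higher and 54 lower. By complex the members went the same way. The medians were -0.028 in complex I (12 of 35 higher), -0.083 in complex II (0 of 4), -0.017 in complex III (3 of 8), -0.015 in complex IV (6 of 17) and -0.026 in complex V (4 of 17). Those of complexes I, III and IV turned positive without vehicle replicate 1 (0.063, 0.064 and 0.069, with 0.028 for complex V), supplemented replicate 2 (0.0080, 0.032 and 0.011) or supplemented replicate 3 (0.027, 0.012 and 0.020). For 74 of 81 members the interval lay within 1.5-fold in either direction and for 79 within 2-fold, the others being Cox8b and Ndufa4l2, which had 10 to 39 counts per library.

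Levels in this table are TMM-scaled counts divided by library size (CPM), without length, and are compared within a gene only. Ndufa1, an X-linked accessory subunit of complex I, had the smallest p, with 47.2, 41.6 and 43.8 CPM in the vehicle retinas and 43.2, 35.4 and 33.7 CPM in the supplemented retinas. Replicates 2 and 3 of the supplemented group were the lowest and replicate 1 lay inside the vehicle range. The log2 fold change was -0.24 ± 0.11 (SE), with a 95% interval from -0.49 to 0.013 and an unadjusted p of 0.0605, and the adjusted p from edgeR was 0.803. Sdhc led complex II with 87.3, 83.9 and 85.003 CPM in the vehicle retinas and 83.2, 80.1 and 73.6 CPM in the supplemented retinas. Its 3 supplemented values lay below the 3 vehicle values, with the highest of the one and the lowest of the other at 83.2 and 83.9 CPM, and the log2 fold change was -0.11 ± 0.071 (SE), with a 95% interval from -0.28 to 0.050 and an unadjusted p of 0.148. Ndufa9 was the other member whose groups did not overlap, so that 2 of 81 did not, against 11.6% of all genes tested. It had 72.2, 73.2 and 76.6 CPM in the vehicle retinas and 72.1, 69.99 and 67.6 CPM in the supplemented retinas. Its log2 fold change was -0.083 ± 0.064 (SE), with a 95% interval from -0.23 to 0.065 and an unadjusted p of 0.23.

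Uqcr11, a small subunit of complex III, had 68.4, 54.6 and 54.7 CPM in the vehicle retinas and 61.6, 49.9 and 48.7 CPM in the supplemented retinas. In each group replicate 1 was the highest, and the log2 fold change was -0.15 ± 0.13 (SE), with a 95% interval from -0.45 to 0.15 and an unadjusted p of 0.276. Cox8b led complex IV with 1.04, 1.13 and 0.489 CPM in the vehicle retinas and 1.31, 1.1001 and 1.48 CPM in the supplemented retinas, from 11 to 36 counts, and a log2 fold change of 0.54 ± 0.36 (SE), with a 95% interval from -0.29 to 1.37 and an unadjusted p of 0.172. Vehicle replicate 3 was the low library and the other values overlapped. Atp5s in complex V had 10.5, 9.69 and 8.76 CPM in the vehicle retinas and 9.98, 7.91 and 8.24 CPM in the supplemented retinas, with overlapping groups and a log2 fold change of -0.15 ± 0.15 (SE), with a 95% interval from -0.49 to 0.19 and an unadjusted p of 0.343.

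The common movement of members between libraries was seen in the injected retinas as well. Over the 80 members with a mean of at least 1 CPM, 70 stood above their own mean in vehicle replicate 1 and 70 in supplemented replicate 1, with medians of 0.19 and 0.15, while 12 to 17 did so in each of the other 4 libraries, with medians of -0.06 to -0.09. Ribosomal protein genes were again highest in the same 2 libraries, at 0.17 and 0.09. The sums of other cell types' markers were not tested between the groups. The sum of 7 microglial genes was 125 to 208 CPM with vehicle and 61.1 to 116 CPM with 24:5, that of 10 rod genes 42178 to 49428 and 50052 to 53318 CPM, and that of 9 lens genes 127 to 1804 and 56.6 to 670 CPM. Their part in the values of the members was not tested.

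Genes that work with the subunits did not pass the threshold either. The lists were assembly factors, regulators, citric acid cycle and pyruvate dehydrogenase genes, a mixed list, and glycolytic genes. The mixed list held cytochrome c, Cyc1, Ndufab1, coenzyme Q synthesis genes, and carriers and channels of metabolites. In the age comparison 0 of 47, 0 of 14, 0 of 16, 0 of 20 and 0 of 17 were called. Their medians were -0.004, -0.053, 0.065, 0.017 and 0.022 in this order. The smallest unadjusted p of the assembly factors was that of Lyrm7, which acts on complex III, at a log2 fold change of -0.28. Among the regulators it was that of Ppargc1b, a coactivator of mitochondrial biogenesis, at -0.36. In the citric acid cycle list it was that of Cs, citrate synthase, at 0.079. Cyc1, the c-type cytochrome of complex III, led the mixed list at 0.23, and Pgam1, a glycolytic mutase, the glycolytic list at 0.18. In the genotype comparison the same lists had medians of -0.006, -0.026, 0.051, 0.019 and 0.055, and after 24:5 they had -0.014, 0.053, 0.011, 0.013 and 0.034, with 0 genes called in both.

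The 13 mitochondrially encoded subunits are the partners of the members inside complexes I, III, IV and V. With age 12 of 13 had a higher fitted mean (median log2 fold change 0.40), and 10 of 13 had an unadjusted p under 0.05, against 3.65% of all genes. In the mutant 11 of 13 were higher, with a median of 0.36 and 4 under 0.05, against 2.19% of all genes. No adjusted p passed the threshold, and both comparisons share wild-type replicate 3 at 12 months, the library in which the list was lowest. Without that library 4 of 13 had an unadjusted p under 0.05 with age (median 0.37), against 11.3% of all genes, and 2 of 13 in the mutant (median 0.22), against 8.97%. The count also turned on other libraries. With age it was 5, 4 and 6 without wild-type replicates 1, 2 and 4 at 18 months. In the mutant comparison it was 8, 0 and 2 without mutant replicates 1, 2 and 3, and 9 without wild-type replicate 1 at 12 months. The difference between the nuclear and the mitochondrial list was not tested. The injected table listed 37 mitochondrial genes at 0 counts, so the mitochondrial partners were not analysed there.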

How the data were processed

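RNA from whole retinas was sequenced after poly-T selection in strand-marking libraries, per the labels' protocols. The authors deposited FPKM values for the 10 uninjected retinas, with gene length, symbol and biotype, and raw read counts for the 6 injected ones. HISAT2 2.2.1, featureCounts 2.0.6, DESeq2 1.42.0 and the mm10 build are listed in the submitters' processing notes without their role. Which annotation was used, and whether reads were counted by strand, is not given in the sources used here. On their own strand, 7 members overlap a protein-coding gene.

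FPKM values were tested with limma 3.58.1 (limma-trend, robust) in R 4.3.3 on log2(FPKM + 1), over 13786 genes with a mean of at least 1 FPKM and with the 3 uninjected groups in 1 fit, so fold changes of low genes are understated. For counts the test was the robust quasi-likelihood test of edgeR 4.0.16, with TMM scaling and filterByExpr, over 17466 genes. This test gives no standard error, so SE for counts was the absolute log2 fold change over the square root of the F statistic. The intervals for counts rest on that value. Tests were two-sided, Benjamini-Hochberg adjusted over all genes tested, with a threshold of 0.05, and the code was tested on simulated data. FPKM times gene length gave whole reads within 0.02 of a whole number for 99.998% of values above 0. An edgeR test on these reads, run as an alternative, called 1 gene with age, 0 with genotype and 0 between wild-type retinas at 18 months and mutant retinas. Uninjected libraries held at least 12810558 reads, and the depth behind each is given with the results.

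Members and gene lists were chosen with earlier results of these data known. Values in every library are given for the member with the smallest p of each complex in each comparison, the 2 highest and 2 lowest tested members of each complex and the tissue isoforms. Alternatives were the filter, the pseudocount (0.1), the scaling, a replicate block, a covariate (Malat1 or Irf9), DESeq2 for the counts, the samples in the fit and the removal of each library in turn. Removal of a trend with gene length was added after seeing the data. Isoform shares in counts were divided by gene length. Promoter windows are those of RefSeq for GRCm38.p6, matched by symbol or a unique synonym.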

Additional observations from a re-analysis of the deposited data

Results flagged for a closer look

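In 2 of 81 members, wild-type replicate 1 at 18 months stood far from the other 3 libraries of its group. Ndufs3, a core subunit of complex I, had 37.3 FPKM there, against 30.5 to 31.5 FPKM in the others. Cox7a2l, a paralogue of Cox7a2 of complex IV, had 152.5 FPKM there, against 123 to 127 FPKM. Chance alone flags about 1 group in 20, a larger share than 2 of 81. Wild-type replicate 1 at 18 months was above the mean of all 10 uninjected libraries for 81 of 81 members. In these genes wild-type replicate 3 at 12 months had 37.3 and 158 FPKM, no lower than that library.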

How the results depend on the processing

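The count of members called was 0 in each of the 4 comparisons under every alternative that was run, with leave-one-out counts of 0 to 0. The direction of Sdhd depended on the setting. With age its log2 fold change was -0.022 without wild-type replicate 2 at 12 months and 0.24 without replicate 3. In the genotype comparison it was -0.019 with Malat1 as a covariate, -0.028 without mutant replicate 3, -0.085 without wild-type replicate 2 and 0.17 without wild-type replicate 3. Between wild-type retinas at 18 months and mutant retinas it was -0.041 without mutant replicate 1, and at 18 months -0.0035 without replicate 1 and 0.14 without replicate 2.

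Medians by complex moved by less than the spread between replicates, but some crossed 0: without 1 library they ran from -0.079 to 0.28 with age, from -0.12 to 0.25 with genotype, from -0.10 to 0.16 between wild-type retinas at 18 months and mutant retinas and from -0.15 to 0.069 after 24:5. The cause was not tested. Malat1 as a covariate gave genotype medians of -0.0015 for complex I, -0.046 for II, -0.0082 for III, 0.033 for IV and -0.026 for V. Counts of calls over all genes moved from 0 to 4 with no filter and 1 with the Malat1 covariate or edgeR (age), to 4 with no filter (genotype) and to 1 or 2 (wild-type at 18 months against mutant). After 24:5 the 2 genes called became 248 with DESeq2, 272 with an Irf9 covariate, 85 with no filter and 0 to 105 without 1 library. Of these libraries, leaving out vehicle replicate 3 gave 105 and supplemented replicate 1 gave 1. The covariate Irf9 had 61.1, 56.7 and 229 CPM in the vehicle retinas and 21.9, 205 and 158 CPM in the supplemented retinas. It thus spread widely within both groups.

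The deviations of same-numbered libraries correlated at -0.049, 0.42 and -0.39 in the age comparison and 0.18, -0.42 and 0.51 in that of genotype. After 24:5 they correlated at 0.50, -0.31 and 0.56, and those of libraries with different numbers at -0.64 to 0.44. As both sets hold both signs, these values cannot decide whether a shared number marks fellow eyes. With the replicate number as a block, 0 members were called in each comparison, 0 genes in the 3 of uninjected retinas and 88 after 24:5, where Ndufa1 had a log2 fold change of -0.25 and an adjusted p of 0.32 from edgeR. Depth limits Cox8b and Ndufa4l2, at 10 to 39 counts per injected library.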
